A study of Mus musculus with 12 samples.

Results

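The activin system of the mouse hippocampus was followed through 10 genes, among 19938 genes that had a representative probe set on the arrays: the subunit genes Inhba, Inhbb and Inha, the extracellular antagonists Fst and Fstl3, the type I receptor genes Acvr1, Acvr1b and Acvr1c, and the type II receptor genes Acvr2a and Acvr2b. All 10 genes had a probe set, 1 each. The set was built around Inhba, which had been picked because much of its response to pilocarpine was left in mutant mice, so that the Inhba values after pilocarpine are given here as a description without a test. The other 9 genes entered as partners of Inhba in the same system.

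Total hippocampal RNA of 12 mice was hybridised to Affymetrix Mouse Gene 1.0 ST arrays, with 1 mouse per array and 3 mice in each of 4 groups. All mice were adult (7 to 10 weeks per the labels), of both sexes and of C57/Bl6 background, carried the CaMKCreERT2 transgene, a tamoxifen-inducible Cre recombinase under the Camk2a promoter, and had received tamoxifen. The mice that the labels call Control, titled SRF-WT, were heterozygous littermates in which Cre could delete 1 Srf allele, so that no group had both alleles intact. Srf mutants (titled SRF-KO) lost both alleles, and in this line the loss is limited to glutamatergic forebrain neurons, so that glia, interneurons and vessels in the same tissue kept Srf.

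Without seizures, heterozygous controls (het control) and mutant controls were injected with Ringer solution. In the heterozygous SE group (het SE), mice were given methyl scopolamine (1 mg/kg) and then pilocarpine (335 or 350 mg/kg), a muscarinic agonist, and were in status epilepticus (SE), continuous seizure activity, for 40 min. Per the labels, diazepam, which ends seizures, followed at 40 min of SE, while the study's methods have mice either killed at that time or given diazepam. Which of these applied to each mouse on the arrays, in this or another group, is not given in the sources used here. Mutants given methyl scopolamine and pilocarpine at these doses (mutant pilocarpine) had seizures but did not reach SE. No diazepam is recorded for them, and the time at which their tissue was taken is not given in the sources used here. Seizure load and genotype therefore changed together between both pilocarpine groups and cannot be told apart. Any difference in diazepam or in the time of tissue collection would fall together with them. Mutants that reached SE were not analysed here.

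Activins are secreted dimers of beta subunits of the TGF-beta superfamily, activin A being the dimer of the Inhba product. They bind a type II receptor (Acvr2a or Acvr2b), which recruits and phosphorylates a type I receptor, mainly Acvr1b, and this receptor in turn phosphorylates Smad2 and Smad3. Inhibins, in which a beta subunit is joined to the Inha product, compete for the type II receptor, whereas follistatin (Fst) and follistatin-like 3 (Fstl3) trap activin outside the cell. In the hippocampus Inhba is a well-known activity-regulated gene of excitatory neurons, and activin A is known for effects on spines, on synaptic transmission and on neuronal survival after excitotoxic insults.

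Levels are robust multiarray average (RMA) values on the log2 scale, and 1 unit is a 2-fold difference. They compare 1 gene between mice, never 1 gene with another, because probe sets differ in brightness. A gene was called at a Benjamini-Hochberg adjusted p under 0.05 in limma over 23410 probe sets. Srf itself ran from 9.53 to 9.60 in het controls and from 8.80 to 8.96 in mutant controls, without overlap, a difference of -0.67 (SE 0.052, adjusted p = 0.000263). Of 12 lists of cell markers, those of neurons, glia, endothelium and thalamus had means of 8.17 or more in every mouse, above the array medians (6.78 to 6.86). Those of choroid plexus (6.84 to 7.51) and blood (1 gene, 6.25 to 6.79) were near the medians. Such levels do not rank the cell types. After SE, limma called 4 of 53 marker genes, beside 5.08% of all probe sets higher and 6.93% lower. They were in the lists of interneurons (Sst higher), microglia (Cx3cr1 and P2ry12 lower) and endothelium (Tek lower). In mutants after pilocarpine and between control groups, limma called 0 of 53 marker genes. At an unadjusted p under 0.05 there were 12 and 7 of the 53, larger shares than the 14.8% and 8.73% of all probe sets. An equal mix of cells was therefore not shown. The mean of 4 thalamic markers was 9.04 in het control mouse 1 and 9.26 in het SE mouse 1 but 8.38 to 8.58 in the other 10 mice. Where leaving out both of these arrays ended a call of a member or pathway gene, the value without them is given beside the result. Sex was not balanced either: Xist, a transcript of female cells, was high (9.92 to 10.61) in 1 het control, 0 het SE mice, 2 mutant controls and 1 mutant with pilocarpine, and low (5.02 to 5.18) in all others. Calls of members or pathway genes that ended with Xist as a covariate are named with their adjusted p. In whole tissue, fewer cells of a type and less RNA per cell cannot be told apart.

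The sequence just upstream of a transcription start annotated in RefSeq is shown for Inhba and Inha. They are the members with the largest changes, and their responses went apart in the mutants. Both come from RefSeq on GRCm38.p6, run 5′ to 3′ on the strand of the gene and end at the base before the start. Inhba lies at chr13:16011601-16011850 on the plus strand and Inha at chr1:75507359-75507608 on the plus strand.
Inhba: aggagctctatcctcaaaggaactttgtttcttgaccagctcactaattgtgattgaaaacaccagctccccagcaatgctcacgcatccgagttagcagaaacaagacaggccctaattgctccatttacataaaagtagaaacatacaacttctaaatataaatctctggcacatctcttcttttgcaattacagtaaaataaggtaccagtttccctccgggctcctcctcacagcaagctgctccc
Inha: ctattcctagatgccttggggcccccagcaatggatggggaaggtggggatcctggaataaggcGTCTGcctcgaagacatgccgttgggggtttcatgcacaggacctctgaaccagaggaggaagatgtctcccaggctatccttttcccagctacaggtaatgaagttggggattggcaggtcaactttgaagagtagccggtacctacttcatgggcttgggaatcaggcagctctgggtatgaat
Capitals mark any match, on either strand, to 6 motifs: the cAMP response element TGACGTCA, its core TGACG (contained in the first), the AP-1 site TGANTCA, the SMAD-binding letters CAGAC, the EGR site GCGNGGGCG, and the CArG box, which is the SRF site. The Inhba stretch held none of them, and the Inha stretch held 1 SMAD match, 186 to 182 bases before the start. Read in frame from its first base, however, the Inha stretch begins with codons of the inhibin alpha precursor, and the SMAD match lies among them. The start listed for Inha is therefore inside the gene. Neither this match nor the lack of others describes the promoter ahead of the Inha coding sequence, and the stretch cannot be compared with that of Inhba. Promoters were listed for 9 of the 10 genes, not for Fst, with 10 stretches in all since Acvr1c has a pair. Matches to SMAD letters stood in 4 genes (Inha, Fstl3, Acvr2a and Acvr2b) and an EGR match in 1 (Acvr1b), while 0 genes held a cAMP response element, its core, an AP-1 site or a CArG box. Among 32851 promoters cut to the same 250 bases, the SMAD letters were found in 42.2%, the core TGACG in 17.8%, AP-1 in 6.75%, EGR in 4.7%, the full cAMP response element in 1.55% and the CArG box in 1.47%. No match in these windows says only that the letters are not there.

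Inhba encodes the beta A subunit, from which activin A is made. Its level was 7.82, 7.97 and 7.95 in the 3 het controls and 9.40, 10.28 and 10.31 in the het SE mice. In mutant controls it was 7.65, 8.03 and 8.25, and in mutants with pilocarpine 9.53, 9.23 and 8.89. Both pilocarpine groups thus lay above all 6 control mice, and they overlapped each other, because het SE mouse 1 (9.40) fell below mutant mouse 1 (9.53). Ordered by group mean, het SE (10.0) and mutant pilocarpine (9.22) overlapped, mutant pilocarpine was separate from mutant controls (7.98), and the latter overlapped het controls (7.92).

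The rise of Inhba was 2.08 (SE 0.23) in heterozygous mice, or 4.23-fold, and 1.24 (SE 0.23) in mutants, or 2.36-fold. The mutant rise was smaller by 0.84 (SE 0.32), written as a difference of -0.84. Between control groups, a contrast that the choice of Inhba did not use, the difference was 0.06 (SE 0.23, 95% interval -0.43 to 0.56, adjusted p = 0.965), and the width of that interval shows how little a basal difference could be seen with 3 mice per group.

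Inhba was set beside the other genes that rose at least 4-fold in het SE mice at an adjusted p under 0.001. There were 44 such genes with Inhba, whose rise was the 39th in order of size. All 44 entered by their rise in het SE mice, with no condition on mutants. A smaller rise in mutants was thus favoured by the choice, and the values below are a description. For the other 43 genes, the median rise was 2.8 in heterozygous mice and 0.76 in mutants, and the median difference was -2.1. The share of the log2 rise that was seen again in mutants had a median of 28.5% in these 43 genes, and over all 44 it ran from -20.8% to 63.2%. Inhba, with 59.6%, came after Npas4 (63.2%), a neuronal activity-dependent transcription factor, and before Arc (58.4%), a synaptic plasticity gene, Dusp6 (51.4%), a phosphatase of ERK, and Fos (50.9%).

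In size, the difference of Inhba was the smallest of the 44. Inhba had been picked for the response it kept, so that a high place in both orders was favoured by the choice. Dusp6 followed with -1.05, Alkal2, a ligand of the ALK receptor, with -1.10, and the neuronal pentraxin Nptx2 with -1.11. Inhba also had the largest SE of that difference among the 44 genes, 0.32 against 0.14 for Dusp6 and 0.20 for Alkal2. The SD of its level was 0.0802 in het controls but 0.516 in het SE mice, 0.301 in mutant controls and 0.318 in mutants with pilocarpine. Without het SE mouse 1, one of the mice with high thalamic markers, the Inhba rise in heterozygous mice became 2.38 and the difference -1.14. Without both mice with high thalamic markers these values were 2.33 and -1.09. The part of thalamic tissue in this was not tested. Both of these differences of Inhba are larger in size than that of Dusp6 over all mice (-1.05). Values of the other genes without these mice are not given here, so that the place of Inhba there is not known.

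**Figure D1:**
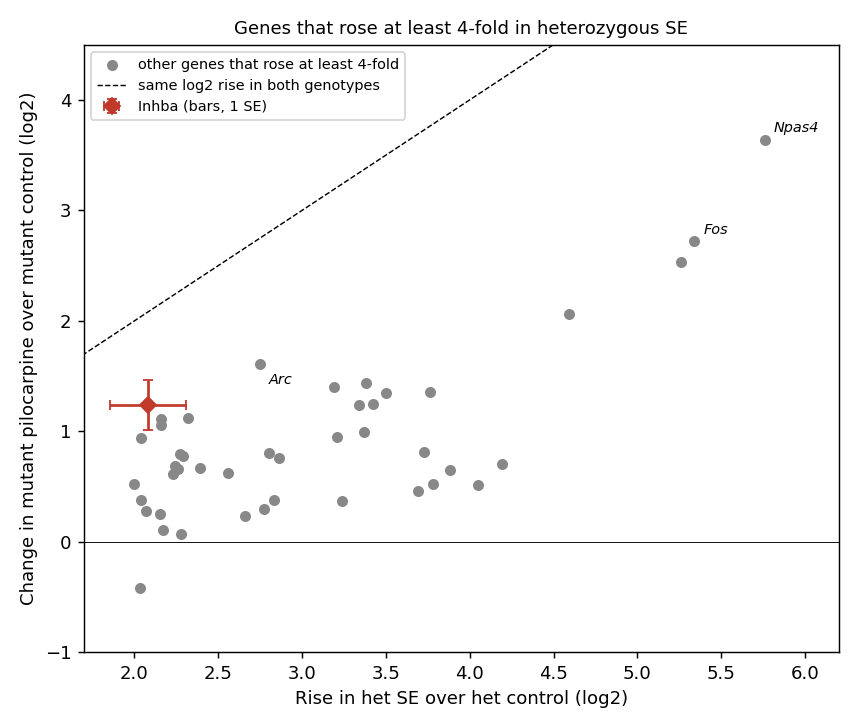
Each point is 1 of the 44 genes that rose at least 4-fold in het SE mice, with its log2 rise in heterozygous mice on the x axis and its log2 change in mutants given pilocarpine on the y axis. All points lie under the dashed line of equal response, and Inhba (diamond, bars of 1 SE) lies at 2.08 and 1.24, nearer to that line than any other gene. The genes were chosen by their rise in het SE mice, which favours places under the line. Inhba had been picked for the response it kept, so that its place was favoured by the choice.

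Inha encodes the alpha subunit, which is found in inhibins and not in activins. Its level was 8.51, 8.64 and 8.49 in het controls and 9.23, 9.10 and 9.12 in het SE mice. In mutants it was 8.61, 8.60 and 8.62 without and 8.38, 8.48 and 8.31 with pilocarpine. The het SE mice were all above, and the mutants with pilocarpine all below, every control mouse, which made Inha the only member whose arrays lay on opposite sides of the controls in both genotypes.

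Inha rose by 0.60 (SE 0.057, adjusted p = 1.77e-05) in het SE mice, a 1.52-fold change. In mutants the value was -0.22 (SE 0.057, adjusted p = 0.0725), which did not pass the threshold and stayed above it under each alternative processing (0.0505 to 0.191). The response in mutants minus that in heterozygous mice was -0.83 (SE 0.081, adjusted p = 7.35e-05). Leaving out any 1 mouse kept this difference between -0.87 and -0.79 and called, and it was -0.77 (adjusted p = 0.000953) without both mice with high thalamic markers. Control groups differed by 0.06 (95% interval -0.06 to 0.19, adjusted p = 0.816).

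Inhbb, which encodes the beta B subunit of activin B, did not rise with Inhba. It was 7.32, 7.43 and 7.51 in het controls against 7.23, 7.28 and 7.24 in het SE mice. In mutants the arrays gave 7.23, 7.32 and 7.25 without and 7.24, 7.10 and 7.28 with pilocarpine. The het SE mice were all lower than the het controls, but the difference of -0.17 (SE 0.058, adjusted p = 0.0923) was not called. It was called with array weights (adjusted p = 0.0466) and without het control mouse 1 (adjusted p = 0.0476). The mutant value was -0.06 (adjusted p = 0.701).

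**Figure D2:**
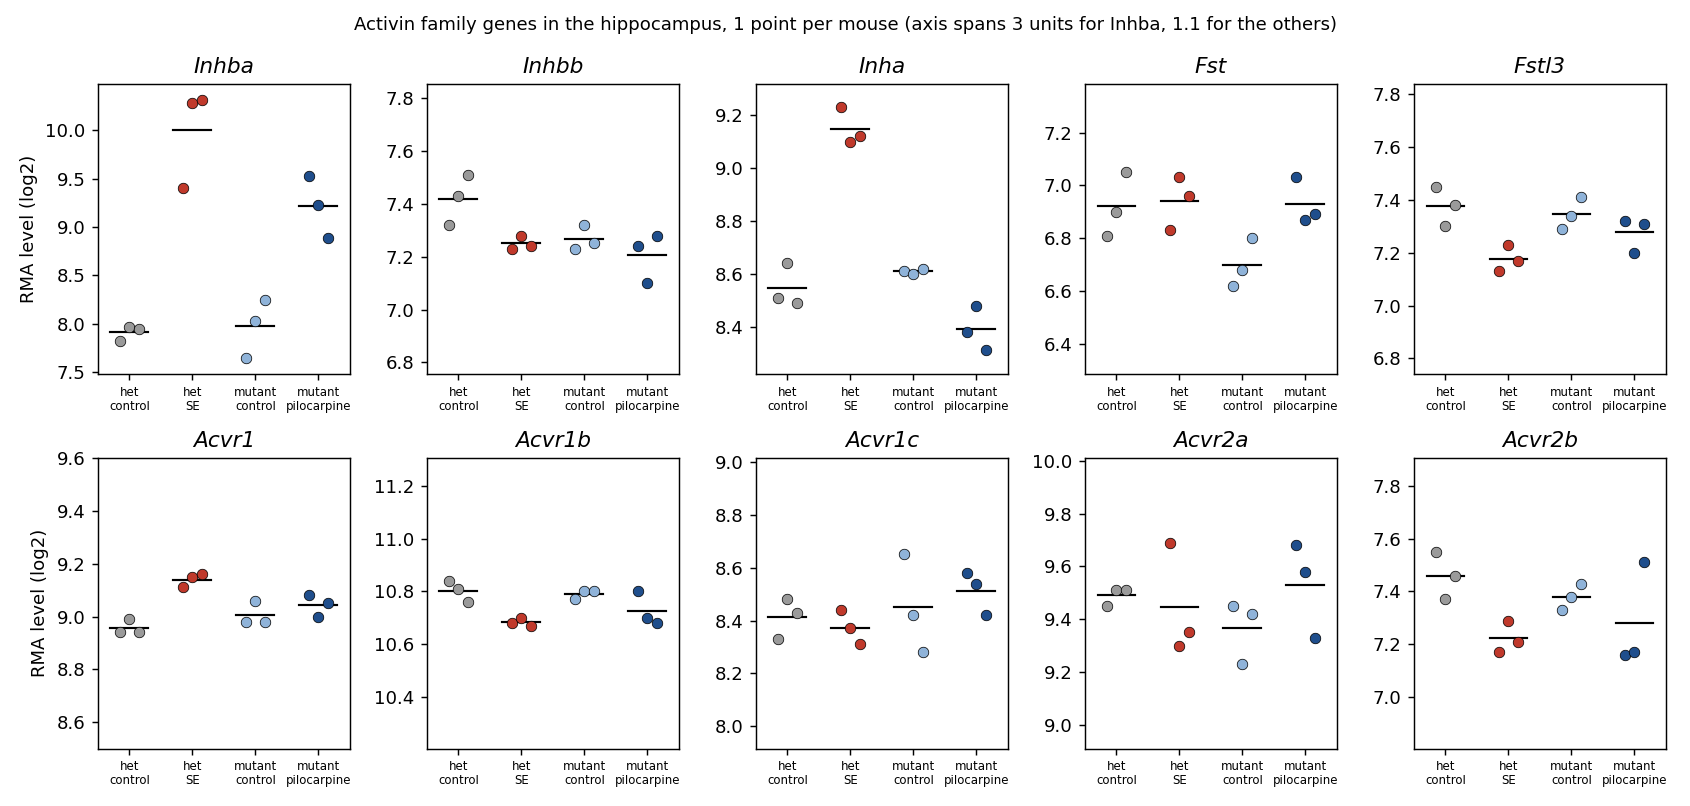
RMA level (log2, y axis) of the 10 genes in each mouse, with points for single mice and a line at the mean of the 3 mice of a group. Inhba lies above the controls in both pilocarpine groups and Inha only in het SE mice, where it runs from 9.10 to 9.23. Axes span 3 units for Inhba and 1.1 for the others.

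Over the 9 members other than Inhba, 2 were called higher in het SE mice (Inha and Acvr1), 1 was called lower (Fstl3) and 6 were not called. Of all 23410 probe sets, 5.08% were called higher and 6.93% lower in this comparison. An unadjusted p under 0.05 in limma was found for 6 of the 9 (Inhbb, Inha, Fstl3, Acvr1, Acvr1b and Acvr2b), and for 23.8% of all probe sets. The median change of the 9 genes was -0.04 against -0.03 over all probe sets. In 2 members the het SE mice were all above and in 4 all below the het controls, where 10.6% and 19.8% of all probe sets showed such a separation.

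In mutants given pilocarpine, limma called 0 of the 9 genes, where 0.871% of all probe sets were called higher and 0.965% lower. At an unadjusted p under 0.05 there were 2, Inha and Fst, where 14.8% of all probe sets were. Their arrays did not overlap with those of mutant controls, Fst being higher and Inha lower, which 7.04% and 11.4% of all probe sets did in these directions. The median of the 9 was -0.06 against 0.00 over all probe sets. The response differed between genotypes in 1 of the 9, Inha, where 2.12% of all probe sets were called with the lower and 1.47% with the higher response in mutants.

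Between mutant and het controls, 0 of the 10 members were called by limma, and 2 had an unadjusted p under 0.05 (Inhbb and Fst), as did 8.73% of all probe sets. The background was low here, with 0.0384% of all probe sets called higher and 0.0812% lower. In 3 members (Inhbb, Fst and Acvr2a) the mutant controls were all below the het controls, by -0.15, -0.22 and -0.12, as were 7.46% of all probe sets, and in 0 members were they all above (6.10% of all probe sets).

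Fst and Fstl3 bind activins and keep them from the receptors. Fst was 6.81, 6.90 and 7.05 in het controls and 6.83, 7.03 and 6.96 in het SE mice, near the array medians, so that a dim probe set limits what can be seen. In mutants it was 6.62, 6.68 and 6.80 without and 7.03, 6.87 and 6.89 with pilocarpine. The mutant controls were thus the lowest group. The changes were 0.02 (adjusted p = 0.924) in heterozygous mice and 0.23 (SE 0.075, adjusted p = 0.146) in mutants, and mutant controls differed from het controls by -0.22 (adjusted p = 0.463). Little brighter over all mice were Inhbb, Fstl3 and Acvr2b (7.10 to 7.55) and the pathway genes Tgif1, Wfikkn1 and Igsf1 (6.81 to 7.61). The same limit holds for them.

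Fstl3 was 7.45, 7.30 and 7.38 in het controls and 7.13, 7.23 and 7.17 in het SE mice, without overlap. In mutants it was 7.29, 7.34 and 7.41 without and 7.32, 7.20 and 7.31 with pilocarpine, with overlap. Fstl3 fell by 0.20 in het SE mice (SE 0.055, adjusted p = 0.0347), the smallest margin of the 3 calls, and the mutant value was -0.07 (adjusted p = 0.605). The call was lost without het control mouse 1 (adjusted p = 0.137) or 3 (0.0938) and without het SE mouse 1 (0.116) or 3 (0.0968), and the value was -0.13 (adjusted p = 0.303) without both mice with high thalamic markers. It was also lost with Xist as a covariate (adjusted p = 0.0661).

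Acvr1, a type I receptor better known for BMP signalling that can also bind activin, was 8.94, 8.99 and 8.94 in het controls and 9.11, 9.15 and 9.16 in het SE mice. Mutants had 8.98, 9.06 and 8.98 without and 9.08, 9.0 and 9.05 with pilocarpine. All het SE mice were above all other mice, by little. The rise was 0.19 (SE 0.042, adjusted p = 0.0106), or 1.14-fold, in heterozygous mice and 0.04 (adjusted p = 0.748) in mutants, and the difference between genotypes, -0.15 (adjusted p = 0.227), was not called. The rise was as large, 0.19, but not called (adjusted p = 0.0648) without both mice with high thalamic markers.

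Acvr1b, the main type I receptor of activin A, ran from 10.76 to 10.84 in het controls and from 10.67 to 10.70 in het SE mice. In mutants it ran from 10.77 to 10.80 without and from 10.68 to 10.80 with pilocarpine. Its change of -0.12 in het SE mice (SE 0.043, adjusted p = 0.107) was not called although the groups did not overlap, and the mutant value was -0.07 (adjusted p = 0.528). Acvr1c, a type I receptor for activin B and Nodal, ran from 8.31 to 8.48 over both heterozygous groups and from 8.28 to 8.65 over both mutant groups. Its changes of -0.04 (95% interval -0.22 to 0.14) and 0.07 (-0.12 to 0.25) were not called.

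Of the type II receptors, Acvr2a was 9.45, 9.51 and 9.51 in het controls and 9.69, 9.30 and 9.35 in het SE mice, on both sides of the controls. In mutants it was 9.45, 9.23 and 9.42 without and 9.68, 9.58 and 9.33 with pilocarpine. Neither the change of -0.04 (95% interval -0.27 to 0.19) nor that of 0.16 (-0.07 to 0.39) was called. Acvr2b was 7.55, 7.37 and 7.46 in het controls and 7.17, 7.29 and 7.21 in het SE mice, without overlap. Mutants had 7.33, 7.38 and 7.43 without and 7.16, 7.17 and 7.51 with pilocarpine, where mutant mouse 3 stood apart. The change in het SE mice, -0.23 (SE 0.084, adjusted p = 0.0987), was not called, but it was without mutant pilocarpine mouse 3 (adjusted p = 0.0141), with array weights (0.0367) and in a fit of both heterozygous groups alone (0.0391). In that last fit Acvr2b was the 1 member called lower in place of Fstl3 (0.0564). The mutant value was -0.10 (adjusted p = 0.645).

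**Figure D3:**
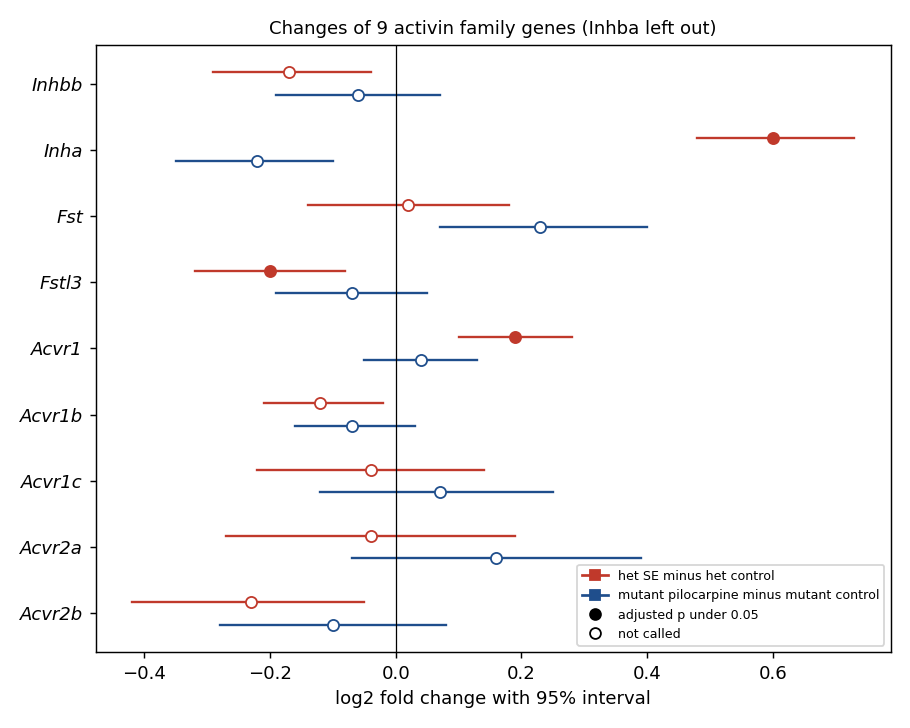
Log2 fold change with its 95% interval (x axis) of 9 genes after pilocarpine in heterozygous mice with SE (red) and in mutants (blue), with filled points for an adjusted p under 0.05. Filled points are Inha at 0.60, Acvr1 at 0.19 and Fstl3 at -0.20, all in heterozygous mice, and none is filled in mutants.

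Further genes of the pathway were taken from lists of ligands, receptors, antagonists, SMAD proteins and responsive genes, of which 57 of 62 had a probe set of their own. In het SE mice 9 of the 57 were called higher and 4 lower, beside 5.08% and 6.93% of all probe sets, so that the 4 lower genes were near the background share. The median was 0.02 against -0.03 over all probe sets. In limma, 17 of the 57 and 23.8% of all probe sets had an unadjusted p under 0.05. Among the called genes not described below, Wfikkn1 rose by 0.24 (adjusted p = 0.0143) and Smurf1 by 0.23 (0.00263). Smurf2 fell by 0.18 (0.0283). The calls of Wfikkn1 and Smurf2 were lost without both mice with high thalamic markers (0.19, adjusted p = 0.0925, and -0.21, adjusted p = 0.0729). They were also lost when some single mice were left out (adjusted p 0.0551 to 0.118). The Smurf2 call was lost, too, with the probe sets of a gene averaged (-0.13, adjusted p = 0.189) and with median centring (-0.16, adjusted p = 0.118). In mutants 5 were called higher and 0 lower, beside 0.871% and 0.965% of all probe sets (limma; 9 of the 57 and 14.8% of all probe sets had an unadjusted p under 0.05), with a median of 0.07. The response differed between genotypes in 6, of which 3 were higher and 3 lower in mutants, beside 1.47% and 2.12% of all probe sets. For this difference, 14 of the 57 and 15.8% of all probe sets had an unadjusted p under 0.05 in limma. Other subunits and close relatives (Inhbc, Inhbe, Mstn, Gdf11, Nodal, Gdf3 and Gdf10) had 0 of 7 genes called in any of the 4 comparisons.

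Among the ligands, Tgfb1 was the only one of 8 TGF-beta and BMP genes called, and it rose in both genotypes, by 0.26 (adjusted p = 0.00498, and 0.0593 without both mice with high thalamic markers) in het SE mice and by 0.23 (adjusted p = 0.0464) in mutants. In mutants this call was lost when any of 10 mice was left out, all but mutant control mouse 3 and het control mouse 3 (adjusted p 0.0579 to 0.134), and without both mice with high thalamic markers (0.0789). Of 11 further receptors and coreceptors, Tgfbr2, the type II receptor of TGF-beta, fell by 0.26 in het SE mice (adjusted p = 0.00686), and by 0.21 without both mice with high thalamic markers (adjusted p = 0.0939). Igsf1, a membrane protein once proposed as an inhibin coreceptor, was 7.26 to 7.40 in het controls and 6.86 to 7.02 in mutant controls, the only one of the 57 genes called between control groups (-0.40, adjusted p = 0.0408). That call was lost when any 1 mouse was left out (adjusted p 0.0547 to 0.205), with values from -0.44 to -0.35, without both mice with high thalamic markers (-0.37, adjusted p = 0.219) and with Xist as a covariate (0.0837). Its rise of 0.21 in het SE mice (adjusted p = 0.0456) was also lost without any het control mouse, het SE mouse 1 or 2, mutant control mouse 3 or mutant pilocarpine mouse 2 (0.0557 to 0.178), without both mice with high thalamic markers (0.22, adjusted p = 0.161) and with Xist as a covariate (0.0804). Igsf1 ran from 7.48 to 7.61 in het SE mice and from 6.81 to 6.97 in mutants with pilocarpine. All mutants thus lay below all heterozygous mice.

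The SMAD proteins that carry the activin signal did not pass the test after SE: Smad2 had a change of -0.07 (adjusted p = 0.417), Smad3 of 0.08 (0.432) and their common partner Smad4 of -0.03 (0.742). Among the SMADs of the BMP branch, Smad1 rose by 0.48 (adjusted p = 0.000122), whereas Smad5 fell by 0.21 (adjusted p = 0.00995) and Smad9 by 0.20 (adjusted p = 0.0402). The call of Smad5 was lost without het SE mouse 3 (adjusted p = 0.0512), and that of Smad9 without any heterozygous mouse or mutant pilocarpine mouse 1 or 2 (0.0542 to 0.130). Without both mice with high thalamic markers Smad9 was at -0.22 (adjusted p = 0.139). Its call was also lost with median centring (-0.18, adjusted p = 0.123) and with renewed quantile normalization (-0.19, adjusted p = 0.0543). Smad7, an inhibitory SMAD induced by TGF-beta and activin, ran from 9.29 to 9.36 in het controls and from 9.91 to 10.09 in het SE mice. In mutants it ran from 9.26 to 9.39 without and from 9.55 to 9.81 with pilocarpine, so that both pilocarpine groups were above all controls. The rises were 0.66 (adjusted p = 4.11e-05) and 0.35 (adjusted p = 0.0259), and the difference between them, -0.31 (adjusted p = 0.114), was not called. The call in mutants was lost without mutant control mouse 1 or 2 or mutant pilocarpine mouse 1 or 2 (0.0636 to 0.101), without both mice with high thalamic markers (0.0539) and with Xist as a covariate (0.0514).

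Of 10 measured genes known to respond to TGF-beta or activin, 4 rose in het SE mice (Smad7, Tgif1, Id1 and Bambi) and 4 in mutants given pilocarpine (Smad7, Skil, Pmepa1 and Klf10), so that Smad7 alone was called in both. Of all probe sets, 5.08% and 0.871% were called higher. The medians were 0.27 and 0.23. These genes also respond to other signals.

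Bambi, a decoy receptor that lacks the kinase domain, was 8.58, 8.61 and 8.45 in het controls and 9.28, 9.40 and 9.06 in het SE mice. In mutants it was 8.18, 8.44 and 8.37 without and 8.14, 8.26 and 8.35 with pilocarpine. Only the het SE mice stood above the rest. The rise was 0.70 (SE 0.091, adjusted p = 0.000266), the mutant value was -0.08 (adjusted p = 0.744), and the difference was -0.78 (SE 0.13, adjusted p = 0.00459).

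Smad1 had the same form, with 8.75 to 8.88 in het controls, 9.22 to 9.35 in het SE mice and 8.68 to 8.86 over all mutants, and a difference of -0.42 (adjusted p = 0.0131). The repressor Tgif1 rose by 0.42 (adjusted p = 0.000106) in het SE mice and was 0.06 (adjusted p = 0.619) in mutants, a difference of -0.36 (adjusted p = 0.0130) that was not called without both mice with high thalamic markers (-0.34, adjusted p = 0.0578). Id1, an inhibitor of DNA binding and a target of BMP signals, rose by 0.65 (adjusted p = 0.00290) in het SE mice and was 0.01 in mutants, but the difference, -0.64 (adjusted p = 0.0605), was not called.

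Klf10, known as TGF-beta inducible early gene, went the other way. It was 8.61, 8.74 and 8.61 in mutant controls and 9.61, 9.63 and 9.60 in mutants with pilocarpine, against 8.48, 8.55 and 8.75 in het controls and 8.51, 8.06 and 8.43 in het SE mice. The mutants with pilocarpine stood alone above all other mice. Klf10 rose by 0.96 (SE 0.10, adjusted p = 0.000440) in mutants, was -0.26 (adjusted p = 0.126) in het SE mice, and differed between them by 1.22 (SE 0.14, adjusted p = 0.000368).

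Pmepa1, a membrane protein that restrains SMAD activation, ran from 10.04 to 10.21 in mutant controls, from 10.56 to 10.71 in mutants with pilocarpine, and from 10.12 to 10.28 over all heterozygous mice. It rose by 0.53 (adjusted p = 0.00032) in mutants and was 0.09 (adjusted p = 0.355) in het SE mice, a difference of 0.44 (adjusted p = 0.00634). Skil, a SMAD corepressor, ran from 10.35 to 10.39 in mutants with pilocarpine and from 9.79 to 10.06 in all other mice. It rose by 0.47 (adjusted p = 0.00192) in mutants and was 0.12 (adjusted p = 0.273) in het SE mice. The Skil difference of 0.36 (adjusted p = 0.0396) was close to the threshold and was not called when any of 10 mice was left out, all but mutant control mouse 2 and het control mouse 1 (0.0579 to 0.105), nor with Xist as a covariate (0.0529).

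**Figure D4:**
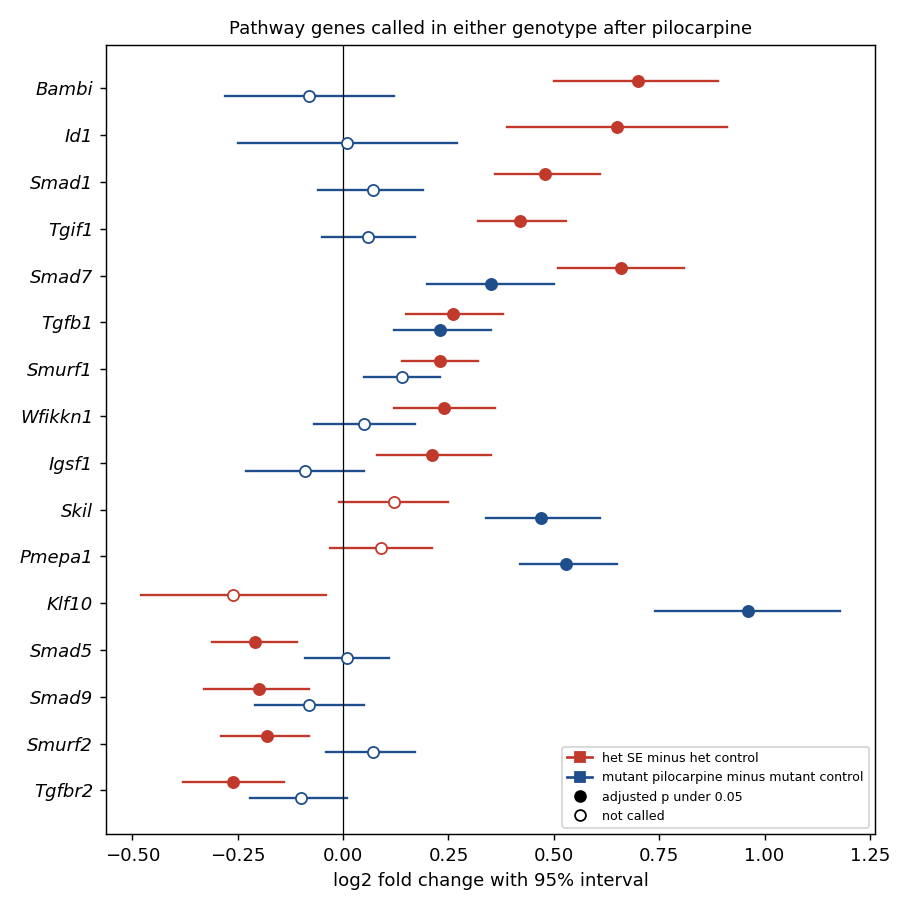
Log2 fold change with its 95% interval (x axis) of 16 pathway genes called after pilocarpine in heterozygous mice with SE (red) or in mutants (blue), with filled points for an adjusted p under 0.05. Bambi, Id1, Smad1 and Tgif1 are filled only in red (0.42 to 0.70), Skil, Pmepa1 and Klf10 only in blue (0.47 to 0.96), and Smad7 and Tgfb1 in both.

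Inhba is also 1 of 9 activity-regulated inhibitor of death genes, a group described as neuroprotective targets of nuclear calcium in hippocampal neurons. Of the other 8, Atf3, Btg2, Gadd45b, Gadd45g, Npas4 and Nr4a1 rose in het SE mice, and all 6 of these had a smaller response in mutants. Their rises ran from 3.19 (Gadd45b) to 5.76 (Npas4) in het SE mice and from 0.46 (Atf3) to 3.64 (Npas4) in mutants, where Atf3 (adjusted p = 0.109) was not called. Ifi202b and Serpinb2 were not called in any comparison. Of all probe sets, 5.08% were called higher after SE, 0.871% in mutants with pilocarpine, and 2.12% with the lower response in mutants. The median difference of the 8 was -2.15, against -0.84 for Inhba. Inhba had been picked for the response it kept, and its own rise was smaller (2.08). In share of the log2 rise kept, Npas4 (63.2%) was above Inhba (59.6%), and the other called genes ran from 12.5% (Atf3) to 44.0% (Gadd45b).

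As a description over the 12 arrays, the 5 genes with values most like those of Inhba were Mir132, a neuronal microRNA gene, Zswim6 and Alkal2 (Pearson r of 0.98 each), and Crem, a cAMP-responsive transcription factor, and Ube2ql1 (0.97 each). Such likeness mostly follows the 4 groups. Within groups, after the mean of each group was taken off, Gdap2 and Opa3 (0.93), and Tub, 2210016F16Rik and Prkab2 (0.92) were nearest, picked from 19938 genes over only 3 mice per group. Among the members, Acvr1 was most like Inhba over the 12 arrays (0.87), followed by Fst (0.57) and Inha (0.56), while Acvr1b (-0.72), Fstl3 (-0.70) and Acvr2b (-0.66) ran against it. Within groups, Fst had 0.75 and all other members lay between -0.34 and 0.39.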

How the data were processed

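Hippocampal RNA of 12 mice was hybridised, 1 animal at a time, to Mouse Gene 1.0 ST arrays. Images were processed by the authors in Affymetrix Expression Console, and the deposited values are RMA summaries on a log2 scale for 35556 probe sets (software versions are not given in the sources used here). Probe sets were named through the platform annotation, 23410 with a gene (21789 with 1 gene and 1621 with several) were tested, and genes with several probe sets were taken at the brightest one. Precision is limited by the 3 arrays per group.

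limma 3.58.1 in R 4.3.3 was used (lmFit and eBayes, group means, all 4 groups in 1 fit, no block), with contrasts of each pilocarpine group against its control, of the control groups, and of the mutant minus the heterozygous response. Benjamini-Hochberg adjustment ran over all 23410 probe sets, and intervals are at 95%. The limits in the study's methods (adjusted p under 0.001, fold of 2 or more) served for the genes that rose at least 4-fold and as an alternative. Members, gene lists and rules were chosen with earlier results of these data known. Named genes were all members, up to 4 called genes per pathway list and comparison with the largest change, the genes most like Inhba, the neighbours of Inhba among the 44 strongly induced genes, Srf, and called markers. Pathway genes printed beside these were picked with their values in view.

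Alternative settings were other limits, median centring, renewed quantile normalization, a trended or robust prior, no dim probe sets, a fit of the compared groups only, array weights, averaged probe sets, a block by animal number, Xist as a covariate, all probe sets and each array left out. Leaving out both arrays with high thalamic markers (mean above 9) was an alternative chosen after seeing the data. Recovery of known changes by the model was checked on simulated data. Promoters were read from a RefSeq table of GRCm38.p6, and counts and plots were made in Python 3.11.15. The labels do not say whether mice shared a litter, so p values measure the spread between these mice.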

Additional observations from a re-analysis of the deposited data

Results flagged for a closer look

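In 7 genes the response to pilocarpine differed between the genotypes by a test of the difference itself, the mutant minus the heterozygous response, at an adjusted p under 0.05 in limma. Among the members this was Inha, with -0.83. Among the other pathway genes, Bambi (-0.78), Smad1 (-0.42) and Tgif1 (-0.36) had the smaller response in mutants. Klf10 (1.22), Pmepa1 (0.44) and Skil (0.36) had the larger response in mutants. Heterozygous mice were in SE and mutants were not, so that genotype and seizure load cannot be told apart in any of these values.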

How the results depend on the processing

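Over 25 alternatives, 13 of which left out arrays, 65 log2 fold changes gave 1609 values: 1455 kept direction and side of the threshold, 135 lost a call, 5 gained one and 14 changed sign. The cause was not tested. Inhba had no threshold in the comparisons where it was not tested. Its values there counted among the 1455 if they kept direction and moved by less than the largest SD of the compared groups. The sign changes concern values near 0 that were never called. For mutant against het control they were Inhba (-0.075 to 0.22 with 1 array left out), Fstl3 (-0.068 to 0.011, and 0.011 without both arrays with high thalamic markers), Acvr1b (-0.032 to 0.0072, 0.0012 with Xist, 0.0072 without both arrays) and Acvr1c (-0.067 to 0.12, -0.0078 without both). For het SE they were Fst (-0.037 to 0.083) and Acvr2a (-0.16 to 0.033), and for mutants with pilocarpine Acvr1c (-0.02 to 0.17).

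At the study's limits, 0 members were called higher (2 in the report) or lower (1) after SE, 0 differed in response (1), 0 pathway genes were called in any contrast of groups (9, 4, 5 and 1), and 1 had a larger (Klf10; 3 in the report) and 0 a smaller response (3) in mutants, by construction of the limits. Members lower after SE were 0 with a prior trend, Xist or all probe sets, 3 with array weights, 0 without both thalamic arrays (1 higher there) and 0 to 2 with 1 array left out. Pathway genes lower after SE were 2 with median centring, 2 without both arrays, and 1 to 5 with 1 array left out. Pathway genes higher in mutants were 3 with the compared groups only, all probe sets or both arrays out, and 3 to 6 with 1 array out. The pathway call between control groups (Igsf1) was 0 with a prior trend, the compared groups only, Xist, all probe sets, both arrays out and each array out. Other counts stayed within 1.5 times.

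A replicate block by animal number gave 0 members lower after SE, 3 pathway genes higher in mutants and 0 lower between controls. With it the calls of Fstl3 and Igsf1 after SE (adjusted p = 0.0554 and 0.0508), of Smad7 and Tgfb1 in mutants (0.0543 and 0.0549), of Igsf1 between controls (0.0683) and of the Skil difference (0.0661) were lost. Same-numbered mice of het SE and mutant controls deviated together (r of 0.123 to 0.323), but those of the other 5 pairs of groups did not throughout (-0.123 to 0.0465 for het control with het SE, -0.312 to 0.145 for the mutant groups, -0.0417 to 0.0131 for both controls, -0.0831 to 0.105 for het control and -0.248 to 0.0223 for het SE with mutant pilocarpine). The numbers were therefore not taken as a pairing. Centring moved the median of all probe sets by at most 0.02.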
